A study of Homo sapiens with 6 samples.

Results

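OS9 and 9 other genes of ER-associated degradation (ERLEC1, SEL1L, SYVN1, EDEM1, EDEM2, EDEM3, DERL1, DERL2 and DERL3) were examined in PC-9 cells after knockdown (KD) of the splicing factor RBM10. They were found by gene symbol, giving 10 of 26334 genes and 30 of 51398 transcript isoforms, of which 8 belong to OS9. PC-9 is a human lung adenocarcinoma line with an activating EGFR deletion. The cells carried a scrambled shRNA (shScr) or 1 of a pair of RBM10 shRNAs (shRBM10#1, shRBM10#2), and gave 2 RNA-Seq libraries per condition, 6 in all. No drug treatment is named in the library titles or in the study's methods for this RNA-Seq. The labels do not say whether the libraries of a condition came from separate cultures, so p values measure only the spread between these libraries. Every comparison with control shares the same shScr libraries. The labels and the study's results name these as shScr, and its methods as parental cells. OS9 was chosen by its isoform usage with shRBM10#1 in these libraries, and its values are therefore given as a description with no test. The other 9 genes were added for their function.

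ER-associated degradation removes misfolded proteins from the endoplasmic reticulum (ER). EDEM mannosidases trim the N-glycans of such proteins, the lectins OS9 and ERLEC1 (also called XTP3-B) bind the trimmed glycans and hand the protein to SEL1L, and SEL1L holds them at the membrane ubiquitin ligase SYVN1 (HRD1). Derlins help to move the substrate to the cytosol, where the p97 ATPase (VCP) extracts it for the proteasome.

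Libraries held 31953729 to 37557507 estimated read counts each. The mean fragment length implied by the transcripts' effective lengths was 231 nt in shScr replicate 2 and 265 to 281 nt in the other 5 libraries. The RBM10 level in CPM, which relates counts to the scaled library total, was 83.2 and 86.2 for shScr. It was 59.8 and 56.4 for shRBM10#1, and 27.2 and 26.9 for shRBM10#2. The mean level left was 68.6% with shRBM10#1 (log2 FC −0.54, FDR = 2.28e-04, edgeR quasi-likelihood test) and 31.9% with shRBM10#2 (log2 FC −1.65, FDR = 5.10e-08, same test), so the shRNAs gave unequal KD. The epithelial markers EPCAM, CDH1, KRT8, KRT18 and KRT19 were high, whereas the lung lineage markers NKX2-1, NAPSA and SFTPB reached at most 16, 22 and 2 counts in any library. KRT19 rose with shRBM10#1 (log2 FC 0.28, FDR = 0.0120, edgeR) and fell with shRBM10#2 (log2 FC −0.28, FDR = 0.00842, edgeR). EPCAM rose with shRBM10#2 (log2 FC 0.24, FDR = 0.0180, edgeR). Limma did not call EPCAM, or KRT19 with shRBM10#1. Of 8 markers of blood, endothelium and stroma, 3 passed the filter on low counts, and CDH5 (log2 FC 0.95, FDR = 4.11e-04, edgeR) and PECAM1 (log2 FC 0.54, FDR = 0.0459, edgeR) of endothelium rose with shRBM10#1. COL1A1 of stroma fell with shRBM10#2 (log2 FC −0.37, FDR = 0.0403, edgeR). The calls of PECAM1 and COL1A1 were not made by DESeq2 or limma. The summed level of these 8 markers was 9.15 to 10.7 TPM (RSEM's length-corrected abundance) in shScr, 12.9 to 15.1 with shRBM10#1 and 9.66 to 9.70 with shRBM10#2, and its part in the results was not tested.

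OS9 is transcribed from the plus strand of chromosome 12 (chr12:57693955-57721557, GRCh38), and its annotated isoforms differ by 3 coding segments that matter for the values. These coordinates and sequences were taken from GENCODE by matching the RefSeq isoform names, whereas the deposited values were made on hg19. An antisense gene overlaps OS9 in GENCODE, and since the strand setting of the counting is not given in the sources used here, reads of the pair cannot be told apart. Exon numbers follow NM_006812, the longest isoform, with 15 exons and 667 residues. The segments are shown because every difference between the 5 expressed isoforms lies in them. Each is written 5′ to 3′ with 20 nt of the neighbouring transcript on either side in lower case, and capitals mark the segment itself.
Exon 13, whole (chr12:57720099-57720263, plus strand, 165 nt or 55 codons): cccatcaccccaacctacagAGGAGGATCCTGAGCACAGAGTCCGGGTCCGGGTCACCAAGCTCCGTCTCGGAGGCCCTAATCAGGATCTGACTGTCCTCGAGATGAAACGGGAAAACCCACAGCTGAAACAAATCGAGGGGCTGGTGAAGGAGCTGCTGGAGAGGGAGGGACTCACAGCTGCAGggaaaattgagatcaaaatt
End of exon 11 (chr12:57718377-57718421, plus strand, 45 nt or 15 codons): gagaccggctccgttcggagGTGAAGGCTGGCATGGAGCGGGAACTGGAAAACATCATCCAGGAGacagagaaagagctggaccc
Addition at the start of exon 7 (chr12:57716089-57716091, plus strand, 3 nt): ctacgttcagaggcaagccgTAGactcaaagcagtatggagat

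NM_006812 holds exon 13 and the end of exon 11. NM_001017958 lacks only the end of exon 11 (652 residues), and NM_001017956 lacks only exon 13 (612 residues). NM_001017957 lacks both (597 residues). NM_001261420 lacks exon 13 and has the 3 nt added to exon 7 (613 residues). All of these differences keep the reading frame. Since NM_001017956 and NM_001261420 differ by 3 nt only, their separate estimates rest on few reads and are less certain than their sum.

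Transcripts without exon 13 made up a smaller share of OS9 in both KD conditions than in shScr. Summed over isoforms, they made 50.1% and 49.8% of OS9 TPM in shScr, 40.3% and 39.5% with shRBM10#1, and 44.4% and 43.9% with shRBM10#2. No library of one condition overlapped those of another. How often the isoform shares of other genes separate in this way was not computed, so the separation has no background. The means were 49.9% ± 0.170 (SD, n = 2), 39.9% ± 0.609 and 44.1% ± 0.403, a difference from shScr of −10.0 percentage points for shRBM10#1 and −5.80 for shRBM10#2. The difference was larger with shRBM10#1, the condition on whose isoform usage OS9 was chosen. Its order against the RBM10 level left is therefore not a result. For NM_001017957 the order was the reverse (−5.73 points with shRBM10#1 and −6.60 with shRBM10#2). Counted as reads, the shares were 48.4% and 48.2% in shScr, 38.8% and 37.9% with shRBM10#1, and 42.8% and 42.3% with shRBM10#2. The highest, in shScr replicate 1, had a 95% Wilson interval of 47.1% to 49.7% on 5964 OS9 counts. The lowest, in shRBM10#1 replicate 2, had 36.9% to 39.0% on 8459. These intervals cover counting error only, and not the error of dividing reads among isoforms. The annotation has the exon 7 addition only in isoforms without exon 13. Reads that carry the addition therefore enter the share without exon 13 by annotation, whatever the state of exon 13 in their transcript. The share is thus an estimate bound to the annotated isoforms, and not a direct count of reads that skip exon 13.

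**Figure D1:**
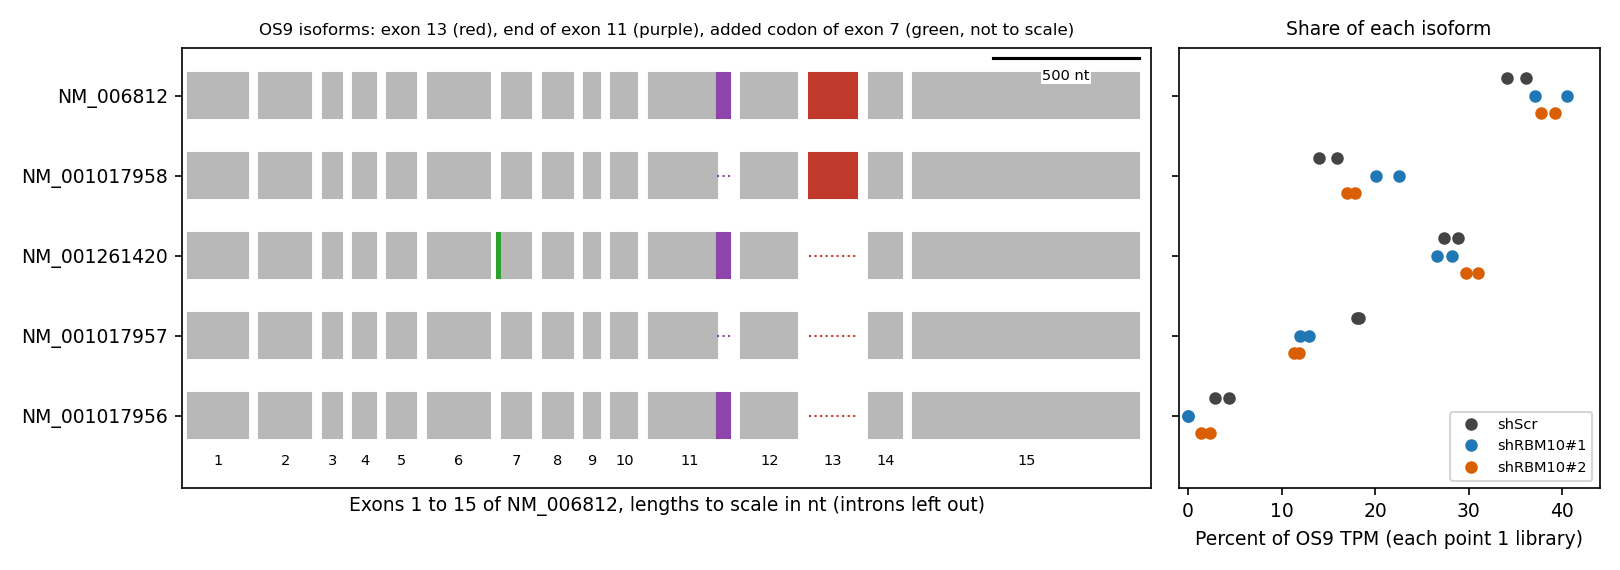
Left, exons of the 5 expressed OS9 isoforms to scale in nt with introns left out (red, exon 13; purple, end of exon 11; green, added codon of exon 7, not to scale; dotted lines mark what an isoform lacks). Right, the percent of OS9 TPM of each isoform, each point 1 library; NM_001017957 lay near 18% in shScr and at 11.3% to 12.9% in the 4 KD libraries.

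The level of exon 13-containing transcripts differed between the KD conditions. The shScr libraries had 52.6 and 64.5 TPM of them, those of shRBM10#1 had 71.7 and 77.8, and those of shRBM10#2 had 53.1 each. In TPM both values with shRBM10#1 lay above shScr, whereas those with shRBM10#2 lay within the shScr range, close to its lower end. The upper end was set by shScr replicate 2, the library with the short fragments. These levels were not computed in CPM, so the order may depend on the scale. Transcripts without exon 13 reached 52.7 and 64.1 TPM in shScr, whereas shRBM10#1 gave 48.5 and 50.7 and shRBM10#2 gave 42.4 and 41.4. These were lower than both shScr libraries in all 4 KD libraries.

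The lower share without exon 13 was most visible among transcripts that also lack the end of exon 11. Within these, exon 13 was absent from 53.5% and 56.4% in shScr, 34.9% and 39.1% with shRBM10#1, and 39.4% and 41.1% with shRBM10#2. The mean difference was −17.9 percentage points with shRBM10#1 and −14.7 with shRBM10#2. Within transcripts that keep the end of exon 11, the corresponding values were 48.3% and 46.7%, 43.2% and 39.6%, and 46.5% and 45.0%. Here the mean difference was −6.06 points with shRBM10#1 and −1.73 with shRBM10#2, and the nearest libraries of shRBM10#2 and shScr almost met. Exon 12, of 190 nt, lies between both segments, beside mean fragments of 231 to 281 nt. How many reads link the segments is not known. This contrast, and the levels of NM_001017957 and NM_001017958 below, thus rest in part on the division of reads by estimation.

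NM_001017957, the isoform that lacks both segments, differed from shScr in mean share by −5.73 (shRBM10#1) and −6.60 (shRBM10#2) percentage points. With shRBM10#2 this is a larger difference than the −5.80 points of all transcripts without exon 13. Those of them that keep the end of exon 11 rose by 0.71 points there. NM_001017957 is described further here. This isoform had 1038 and 1121 estimated counts in shScr, 736 and 1035 with shRBM10#1, and 649 and 698 with shRBM10#2. Its share of OS9 TPM was 18.2% and 18.1% in shScr, 12.0% and 12.9% with shRBM10#1, and 11.3% and 11.8% with shRBM10#2. All 4 KD shares were below both shScr shares, and those of the 2 shRNAs lay next to each other.

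NM_001017958, which keeps exon 13 but lacks the end of exon 11, had a larger share of OS9 in all 4 KD libraries than in shScr. It held 967 and 927 counts in shScr, 1484 and 1720 with shRBM10#1, and 1094 and 1071 with shRBM10#2. Its share was 15.9% and 14.0%, 22.6% and 20.1%, and 17.8% and 17.0%, in the same order. Both shRNAs gave values above both shScr libraries, with the shRBM10#1 values the highest.

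The full-length NM_006812 was the most abundant isoform in every library. Its counts were 2111 and 2433 in shScr, 2484 and 3531 with shRBM10#1, and 2363 and 2514 with shRBM10#2. It made 34.1% and 36.2% of OS9 TPM in shScr, 37.1% and 40.5% with shRBM10#1, and 37.8% and 39.2% with shRBM10#2. The 4 KD shares lay above the shScr shares, by less than the distance between the shScr libraries at the nearest point.

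NM_001017956, which lacks exon 13 alone, had the most extreme values. It had 257 and 183 estimated counts in shScr, 0 in both shRBM10#1 libraries, and 78.4 and 141 with shRBM10#2. The 0 of 6482 and 0 of 8459 OS9 counts allow shares of up to 0.0463% and 0.0355%, against 4.43% and 2.90% of OS9 TPM in shScr. With a floor of 3 counts per library, its mean of 6.73 CPM in shScr was 75.9-fold the mean floor of shRBM10#1 (0.0887 CPM). This ratio of means leaves out the error of dividing reads with its near-twin NM_001261420, and is no lower bound. NM_001261420 had 1588 and 1819 counts in shScr, 1772 and 2174 with shRBM10#1, and 1815 and 1786 with shRBM10#2. Summed, as all transcripts that lack exon 13 and keep the end of exon 11, these 2 isoforms and NM_001261421 (33 counts in shRBM10#2 replicate 1 and 0 elsewhere) had 1845 and 2001 counts in shScr, 1772 and 2174 with shRBM10#1, and 1926 and 1927 with shRBM10#2. These summed counts overlapped between all 3 conditions. As a share of OS9 TPM the same sum made 31.8% and 31.7% in shScr, 28.2% and 26.6% with shRBM10#1, and 32.9% and 32.0% with shRBM10#2, so that shRBM10#1 lay below shScr and shRBM10#2 above it. The remaining isoforms were at or near the floor, NM_001261422 with 0 counts in all 6 libraries and NM_001261423 with 0 to 13.

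The other 2 segments differed less. Transcripts without the end of exon 11 made 34.2% and 32.1% of OS9 TPM in shScr, 34.7% and 33.0% with shRBM10#1, and 29.4% and 28.8% with shRBM10#2. The shRBM10#1 values overlapped shScr, and the shRBM10#2 mean lay 4.07 points below it. Transcripts with the added 3 nt of exon 7 made 27.3% and 28.8% in shScr, 28.2% and 26.6% with shRBM10#1, and 31.5% and 29.7% with shRBM10#2. Here too shRBM10#1 overlapped shScr, and both shRBM10#2 values were higher.

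**Figure D2:**
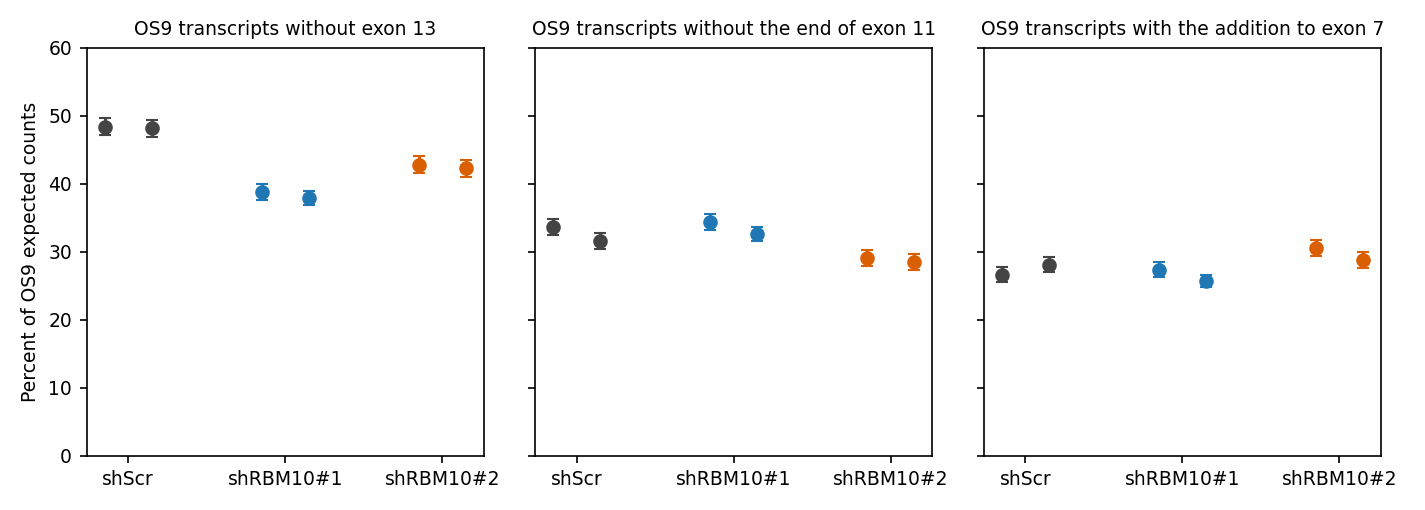
Percent of OS9 estimated counts from transcripts without exon 13, without the end of exon 11, and with the addition to exon 7, each point 1 library with its 95% Wilson interval. For exon 13 the shScr libraries sit at 48.2% and 48.4%, above all 4 KD libraries (37.9% to 42.8%).

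The OS9 gene total moved in opposite directions with the 2 shRNAs. It stood at 184 and 197 CPM in shScr, 207 and 230 with shRBM10#1, and 163 and 162 with shRBM10#2. On this scale no condition overlapped another, and the shRBM10#2 mean lay 56.0 CPM below that of shRBM10#1. The share of all genes whose totals separate in this way was not computed, here or for EDEM1 below. In TPM, which also corrects for the effective length, the values were 105 and 129 in shScr, 120 and 128 with shRBM10#1, and 95.5 and 94.5 with shRBM10#2, so that shRBM10#1 overlapped shScr and shRBM10#2 remained below it. shScr replicate 2, the library with the short fragments, set the upper end of the control range.

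Per length, OS9 was the most abundant of the 10 genes, at 94.5 to 129 TPM over the 6 libraries. DERL1 followed at 58.3 to 75.4 TPM and SYVN1 at 34.0 to 40.3 TPM. The ranges of SYVN1 and ERLEC1 (27.3 to 36.1 TPM) overlapped, as did those of ERLEC1, EDEM1 (23.6 to 34.0 TPM) and EDEM2 (26.5 to 31.5 TPM). SEL1L (15.6 to 20.3 TPM), DERL2 (7.88 to 8.75 TPM) and EDEM3 (4.94 to 6.48 TPM) came lower, each apart from its neighbours. DERL3 had 0 to 2 counts per library and did not pass the filter, so 8 genes besides OS9 were tested among 14217.

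In gene total, 1 of the 8 passed the test with shRBM10#1 (FDR below 0.05), where 14.0% of all genes did (7.13% higher, 6.91% lower). With shRBM10#2, 0 of the 8 passed in edgeR, DESeq2 and limma, 2 had an unadjusted p below 0.05, and 25.9% of all genes passed (12.0% higher, 13.9% lower). Between the shRNAs, 1 of the 8 passed, beside 25.5% of all genes (11.0% higher, 14.5% lower in shRBM10#2). With all 4 KD libraries as a single group, 0 of the 8 passed in any of these tools, none had an unadjusted p below 0.05 in edgeR, and 1.62% of all genes passed. The median log2 FC of the 8 was −0.0032 with shRBM10#1 and 0.10 with shRBM10#2, against 0.0079 and 0.0054 over all genes.

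ERLEC1, the second lectin, stood at 48.7 and 45.1 CPM in shScr, 42.8 and 53.0 with shRBM10#1, and 53.0 and 56.5 with shRBM10#2. The shRBM10#1 libraries lay on either side of shScr (log2 FC 0.03, SE 0.0941), and both shRBM10#2 values were above it (log2 FC 0.22, SE 0.0933, FDR = 0.0985, edgeR). That difference did not pass the test over all 6 libraries but did so with the shRBM10#1 libraries left out of the fit (FDR = 0.0261, edgeR).

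SEL1L, the scaffold that ties the lectins to the ligase, stood at 88.0 and 93.3 CPM in shScr, 88.3 and 91.5 with shRBM10#1, and 83.9 and 81.1 with shRBM10#2. The shRBM10#2 libraries were the lowest (log2 FC −0.14, SE 0.0650, FDR = 0.142, edgeR). SYVN1, the ligase, stood at 72.9 and 60.9 CPM in shScr, 65.0 and 78.0 with shRBM10#1, and 76.3 and 70.7 with shRBM10#2. Its shScr libraries differed from each other as much as from the KD libraries (log2 FC 0.10, SE 0.0991 with shRBM10#1 and 0.13, SE 0.0988 with shRBM10#2).

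EDEM1, a mannosidase-like protein that marks glycoproteins for disposal, was the only one of the 8 that passed the test in these fits. It stood at 124 and 122 CPM in shScr, 110 and 99.1 with shRBM10#1, and 136 and 133 with shRBM10#2. The conditions did not overlap in CPM, whereas in TPM shRBM10#2 (33.8 and 33.0) overlapped shScr (29.9 and 34.0) and shRBM10#1 (27.1 and 23.6) was lower. EDEM1 fell with shRBM10#1 (log2 FC −0.23, SE 0.0671, FDR = 0.0351, edgeR), did not pass with shRBM10#2 (log2 FC 0.13, SE 0.0666, FDR = 0.179, edgeR), and was higher with shRBM10#2 than with shRBM10#1 (log2 FC 0.36, SE 0.0668, FDR = 0.00249, edgeR). The difference between the shRNAs kept its call in 13 of 13 alternative fits (FDR 2.12e-05 to 0.0484, edgeR, DESeq2 and limma). The fall with shRBM10#1 kept it in 6 of 13, and was lost without shScr replicate 1 (FDR = 0.112), shScr replicate 2 (0.109), shRBM10#1 replicate 2 (0.169), shRBM10#2 replicate 1 (0.0961) or shRBM10#2 replicate 2 (0.0897), all by edgeR.

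EDEM2 and EDEM3, the other mannosidases of the family, did not pass. EDEM2 stood at 30.7 and 31.3 CPM in shScr, 31.5 and 37.1 with shRBM10#1, and 31.9 and 32.6 with shRBM10#2, with shRBM10#1 replicate 2 apart from the other 5 libraries. EDEM3 stood at 22.1 and 25.1 CPM in shScr, 22.5 and 23.5 with shRBM10#1, and 26.3 and 25.6 with shRBM10#2, and its largest difference was between the shRNAs (log2 FC 0.17, SE 0.0850, FDR = 0.155, edgeR).

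DERL1, of the derlin family, stood at 143 and 142 CPM in shScr, 129 and 137 with shRBM10#1, and 130 and 122 with shRBM10#2. All 4 KD libraries were below shScr, with log2 FC −0.10 (SE 0.0642, FDR = 0.332, edgeR) and −0.18 (SE 0.0642, FDR = 0.0610, edgeR). The second of these passed with the shRBM10#1 libraries left out of the fit (FDR = 0.0258, edgeR). DERL2 stood at 23.6 and 20.8 CPM in shScr, 22.4 and 22.2 with shRBM10#1, and 23.3 and 23.6 with shRBM10#2, and the KD values lay within or next to the shScr range.

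**Figure D3:**
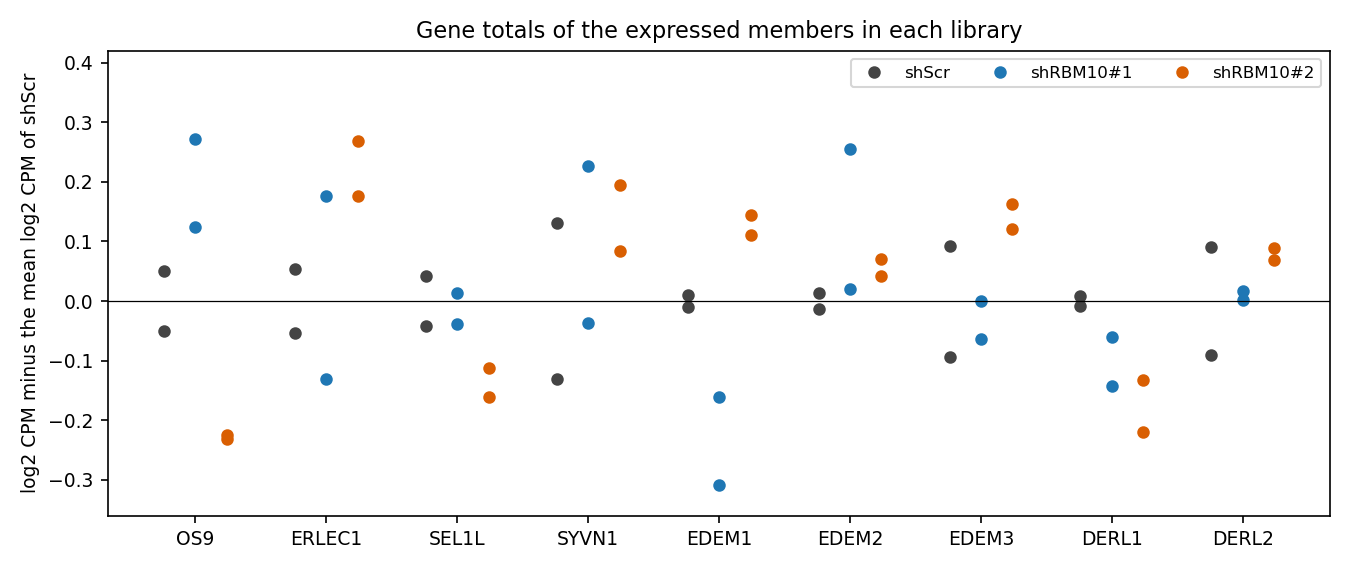
Gene totals of the 9 expressed genes as log2 CPM minus the mean log2 CPM of shScr, each point 1 library. OS9 and EDEM1 separate the 3 conditions in opposite orders, and the other genes show smaller or overlapping differences.

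OS9 was left out of the counts of isoform tests because it was chosen on this measure. Among the other members there were no calls, which tells little for so few isoforms and genes at the low shares called over all features. Of 17 isoforms of these genes tested, 0 met the criteria of FDR below 0.05 and an absolute log2 FC above 1 in edgeR in any of the 3 comparisons, where 0.0227% (shRBM10#1), 0.491% (shRBM10#2) and 0.359% (between the shRNAs) of all 26464 isoforms did. At an unadjusted p below 0.05 there was 1 in each comparison. DESeq2 gave 1 with FDR below 0.05 in each comparison, and the share of all isoforms it called is not given here. These were the only EDEM1 isoform NM_014674 with shRBM10#1 and between the shRNAs, and the main DERL1 isoform NM_024295 with shRBM10#2. None of them had a log2 FC above 1 in size. Isoform usage, tested in the 5 members with more than 1 isoform past the filter (ERLEC1, SYVN1, EDEM2, DERL1, DERL2), gave 0 calls in each comparison by edgeR and by limma, and 0 at an unadjusted p below 0.05 in edgeR, where 0.250%, 1.90% and 1.22% of 6405 genes were called.

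ERLEC1 has a shorter isoform, NM_001127398, that lacks 162 nt of the coding sequence of NM_015701. It made 23.9% and 12.6% of ERLEC1 TPM in shScr, 20.5% and 21.2% with shRBM10#1, and 15.1% and 17.9% with shRBM10#2, so that the shScr libraries spanned all the others. SYVN1 has 2 isoforms that differ by 3 nt, and the shorter, NM_032431, made 38.1% and 39.4% in shScr, 43.1% and 37.2% with shRBM10#1, and 38.7% and 41.1% with shRBM10#2. The main isoforms NM_018217 of EDEM2 (88.1% to 95.3%), NM_016041 of DERL2 (82.7% to 90.6%), NM_024295 of DERL1 (98.4% to 99.3%) and NM_005065 of SEL1L (97.9% to 100%) held most of their genes in every library. For EDEM2, NM_018217 made 88.1% and 93.0% in shScr, 92.3% and 95.3% with shRBM10#1, and 93.8% in both shRBM10#2 libraries, so that shRBM10#2 lay above shScr and shRBM10#1 overlapped it. Its minor isoform NM_001145025 made 2.08% and 1.89% in shScr and at most 0.974% in the 4 KD libraries, on 0 to 19.2 counts per library. EDEM1 and EDEM3 (NM_025191) have 1 isoform each in the files.

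Beyond the members, 4 lists of genes of the same pathway were counted in the same fit. Over all genes 14.0% passed with shRBM10#1 (7.13% higher, 6.91% lower) and 25.9% with shRBM10#2 (12.0% higher, 13.9% lower). The share of all genes at an unadjusted p below 0.05 is not given here, so counts at that p have no background. Of 16 partners of SYVN1 and of dislocation, 2 fell and 0 rose with shRBM10#1 (UBE2J1, NPLOC4), and 2 rose (SVIP, SELK) and 2 fell (NPLOC4, UBE2J1) with shRBM10#2. DESeq2 also called HERPUD1, a SYVN1 partner, higher with shRBM10#1. Neither DESeq2 nor limma called UBE2J1 with shRBM10#2, and limma did not call NPLOC4 with shRBM10#1. The list's median log2 FC was 0.04 with shRBM10#1 and 0.17 with shRBM10#2. UBE2J1, the ER-anchored ubiquitin-conjugating enzyme that works with SYVN1, stood at 48.3 and 48.1 CPM in shScr, 34.4 and 37.8 with shRBM10#1, and 39.6 and 42.4 with shRBM10#2. All KD libraries were lower, with log2 FC −0.42 (SE 0.0750, FDR = 0.00277, edgeR) for shRBM10#1 and −0.23 (SE 0.0741, FDR = 0.0366, edgeR) for shRBM10#2, the latter call being lost in 6 of 13 alternative fits, those without either shScr or either shRBM10#2 library among them (FDR 0.0169 to 0.304 over all 13).

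NPLOC4, a cofactor of the p97 ATPase, stood at 199.95 and 214 CPM in shScr, 186 and 163 with shRBM10#1, and 158 and 155 with shRBM10#2. It was lower in all 4 KD libraries, with log2 FC −0.41 (SE 0.0728, FDR = 0.00212, edgeR) for shRBM10#2, and −0.25 (SE 0.0727, FDR = 0.0376, edgeR) for shRBM10#1, a call kept in 5 of 13 alternative fits and lost without any 1 library other than shRBM10#1 replicate 1 (FDR 0.00465 to 0.213, edgeR). SVIP, a small p97-binding inhibitor of this pathway, stood at 16.2 and 16.8 CPM in shScr, 16.5 and 19.1 with shRBM10#1, and 24.6 in both shRBM10#2 libraries. It rose with shRBM10#2 (log2 FC 0.58, SE 0.0913, FDR = 0.00105, edgeR) and was also higher than with shRBM10#1 (log2 FC 0.46, FDR = 0.00328, edgeR). SELK, a selenoprotein of the ER membrane named after its value was seen, had log2 FC 0.43 (FDR = 0.00608, edgeR) with shRBM10#2.

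Of 12 other ER ubiquitin ligases and their partners, 0 passed with shRBM10#1 in edgeR, DESeq2 or limma, where 14.0% of all genes did in edgeR. At an unadjusted p below 0.05 there were 5 in edgeR. With shRBM10#2, 2 of the 12 fell (RNF5, UBE2J2), where 13.9% of all genes did. RNF5 stood at 6.71 and 5.38 CPM in shScr, 4.73 and 3.66 with shRBM10#1, and 3.82 and 2.64 with shRBM10#2 (log2 FC −0.91, SE 0.202, FDR = 0.00684 for shRBM10#2, edgeR). Its level is uncertain because the genome holds a near-identical processed copy, and the call was lost without shScr replicate 1 (FDR = 0.0698, edgeR) or shRBM10#2 replicate 2 (FDR = 0.0992, edgeR). The median log2 FC of this list was 0.11 with shRBM10#1 and 0.04 with shRBM10#2.

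Of 9 genes of the calnexin cycle and glycan processing, 0 passed with shRBM10#1 in edgeR (2 at an unadjusted p below 0.05), DESeq2 or limma. With shRBM10#2 1 rose (PDIA3) and 3 fell (NGLY1, CALR, MOGS), where 12.0% of all genes rose and 13.9% fell. Limma did not call PDIA3 or MOGS there, and DESeq2 also called GANAB lower. The median log2 FC of the 9 genes was −0.01 with shRBM10#1 and −0.17 with shRBM10#2. PDIA3, the disulfide isomerase of the cycle, stood at 385 and 348 CPM in shScr, 384 and 447 with shRBM10#1, and 432 and 436 with shRBM10#2 (log2 FC 0.24, SE 0.0795, FDR = 0.0389 for shRBM10#2, edgeR). That call was kept in 8 of 13 alternative fits and lost without shScr replicate 2 (FDR = 0.224) or either shRBM10#2 library (0.180 and 0.213), by edgeR. NGLY1, the enzyme that strips N-glycans from dislocated proteins, stood at 13.3 and 12.7 CPM in shScr, 12.1 and 13.1 with shRBM10#1, and 9.29 and 10.6 with shRBM10#2 (log2 FC −0.39, SE 0.107, FDR = 0.0197, edgeR). Leaving out either shScr or either shRBM10#2 library ended that call (FDR 0.0528 to 0.212, edgeR).

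Of 8 ER chaperones and co-chaperones, 0 passed with shRBM10#1 in edgeR, DESeq2 or limma and none had an unadjusted p below 0.05 in edgeR. With shRBM10#2, 3 fell (SDF2L1, HYOU1, HSPA5), where 13.9% of all genes did, and limma did not call HYOU1. SDF2L1, a partner of ER DNAJ proteins, stood at 35.8 and 33.4 CPM in shScr, 39.4 and 37.5 with shRBM10#1, and 25.3 and 25.5 with shRBM10#2. It fell with shRBM10#2 (log2 FC −0.44, SE 0.0747, FDR = 0.00155, edgeR) and was lower than with shRBM10#1 as well (log2 FC −0.59, SE 0.0743, FDR = 3.04e-04, edgeR). HSPA5 (BiP), the major ER chaperone, had log2 FC −0.24 (FDR = 0.0151, edgeR) and HYOU1 −0.30 (FDR = 0.0153, edgeR) with shRBM10#2, both named after their values were seen. The list's median log2 FC was 0.0044 and −0.06.

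**Figure D4:**
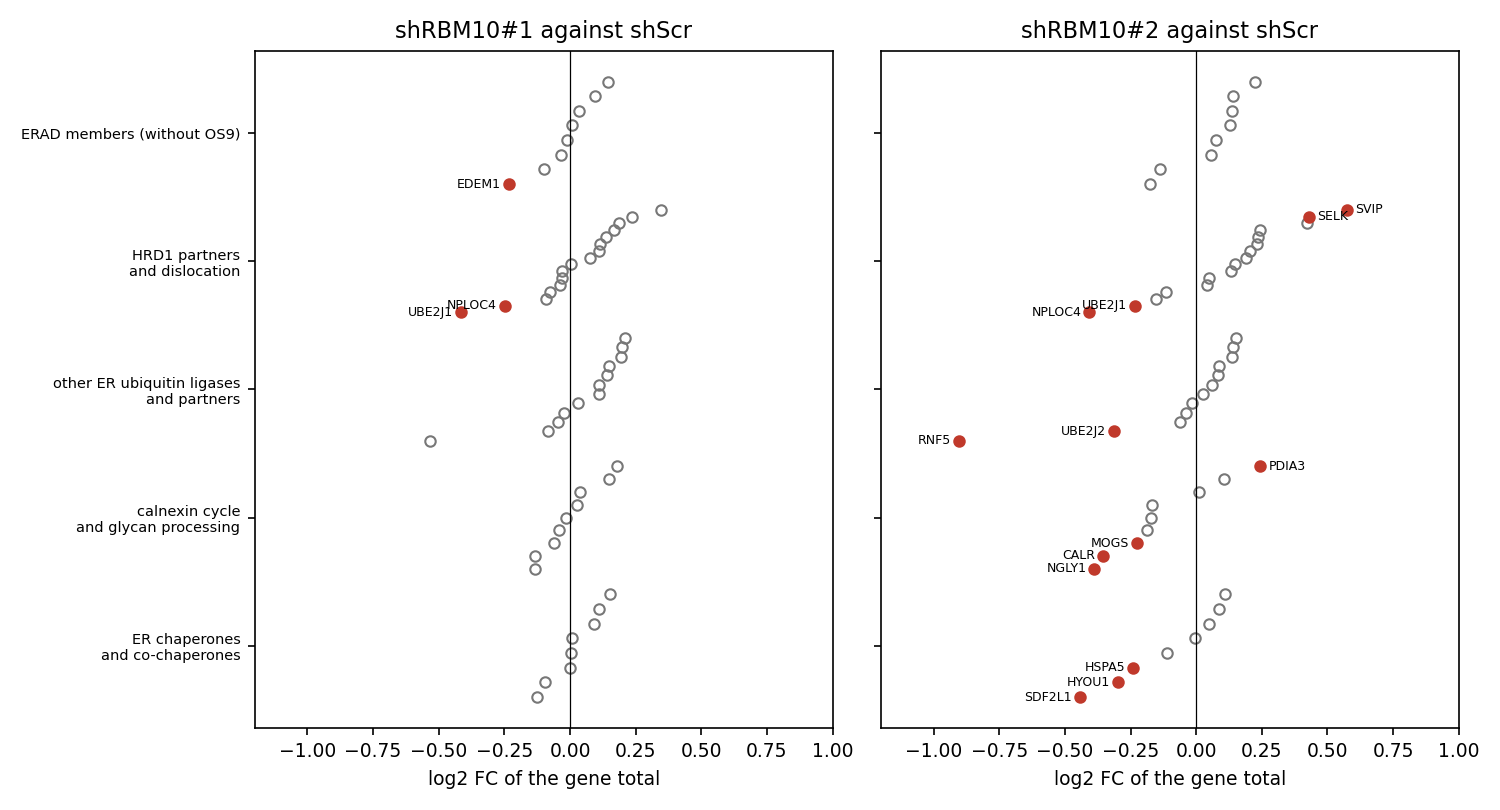
Log2 FC of gene totals against shScr for the 8 tested members other than OS9 and for 4 pathway lists, each symbol 1 gene (filled and named, FDR below 0.05). More genes are filled with shRBM10#2 (13 in the 4 lists) than with shRBM10#1 (2), as is the case over all genes tested (25.9% and 14.0%).

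Between the shRNAs, 25.5% of all genes passed in edgeR (11.0% higher, 14.5% lower in shRBM10#2). In the same test 3 of 16 SYVN1 and dislocation partners were higher with shRBM10#2 (SVIP, FAM8A1, HERPUD2). Lower were 1 of 12 other ligases and partners (UBE2J2), 4 of 9 calnexin-cycle genes (CALR, MAN1B1, NGLY1, MOGS) and 1 of 8 chaperones (SDF2L1). DESeq2 did not call HERPUD2, UBE2J2 or NGLY1 there. Of these, SVIP, NGLY1 and SDF2L1 were named by the rule and the rest after their values were seen.

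The genes whose total most resembled that of OS9 over the 6 libraries, by Pearson's r of log2 CPM, were TMBIM6 (r = 0.995), ZNF212 (0.991), GNAI2 (0.988), OVCA2 (0.987) and NOD2 (0.986), and 153 genes had r above 0.95. For NM_001017956 they were isoforms of PABPC4 (NM_001135653, r = 0.999), EYA4 (NM_001301013, 0.996), HCP5 (NR_040662_3, 0.996), ULK3 (NR_104308, 0.995) and ANO10 (NM_001204834, 0.994), among 184 above 0.95. The 6 points come as 3 pairs of libraries, so these values describe a shared order of conditions.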

How the data were processed

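Total RNA of 6 PC-9 libraries (shScr, shRBM10#1, shRBM10#2, n = 2 each, grouped by their labels) was sequenced by the authors. Their processing notes name STAR 2.4, RSEM 1.2.29, edgeR and hg19, with no role or order. The deposited RSEM tables give, per RefSeq isoform, an expected count (an estimated number of reads), TPM and effective length, all as the authors deposited them. RSEM divides reads that fit several isoforms by estimation, so isoforms that differ by few bases are less certain than their sum. The members and gene lists were chosen with earlier results of these data known.

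Expected counts were rounded, summed per gene where needed, scaled by TMM (factors 0.979 to 1.02) and filtered by filterByExpr. edgeR 4.0.16 (R 4.3.3) quasi-likelihood tests were fitted on all 6 libraries with 1 coefficient per condition and no block, and FDR is Benjamini-Hochberg over all genes or isoforms tested. Isoform calls also needed an absolute log2 FC above 1. Isoform usage was tested with diffSpliceDGE and Simes p values. OS9 shares are sums of TPM or counts over isoforms grouped by segment, a grouping chosen after the data were seen. Scripts were tested on simulated counts. Alternatives were DESeq2 1.42.0, its size factors, limma 3.58.1 on log2(TPM + 0.1), other filters (none, or 10 counts in every library), only the libraries compared, a replicate block and leaving out each library. Totals of 31953729 to 37557507 counts set the precision, and intervals (95%) and floors (3 counts) cover counting error only.

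Genes named were all members, RBM10, all OS9 isoforms, isoforms of other members with at least 10 percent of the gene, and, per list and comparison with shScr, the called gene with the largest rise and fall. Other names were added after their values were seen.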

Additional observations from a re-analysis of the deposited data

Results flagged for a closer look

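Several values differed between the shRNAs. EDEM1 (log2 FC of shRBM10#2 against shRBM10#1, 0.36), SVIP (0.46), NGLY1 (−0.35), SDF2L1 (−0.59) and RBM10 itself (−1.11) passed the edgeR test of that difference. For NGLY1 (FDR = 0.0320, edgeR) the call was lost without shRBM10#1 replicate 2 or either shRBM10#2 library (FDR 0.0299 to 0.283 over all leave-outs) and in DESeq2 and limma, whereas the others kept it in all 13 alternative fits.

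The OS9 total was higher in both shRBM10#1 libraries and lower in both shRBM10#2 libraries than in both shScr libraries, in CPM. The difference between the shRNA means was −56.0 CPM, and it was not tested because OS9 was selected on these libraries.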

How the results depend on the processing

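The number of members called in gene total with shRBM10#1 was 1, and it became 0 with the fold criterion added, with limma on log2 TPM and with only the libraries compared, and 0 to 2 when 1 library was left out. For shRBM10#2 it was 0, and it became 1 (ERLEC1) with no filter, 2 (ERLEC1, DERL1) with only the libraries compared, and 0 to 2 when 1 library was left out. Between the shRNAs it was 1, becoming 0 with the fold criterion and 1 to 2 on leaving out a library. The share of all genes called in each of these alternative fits is not given here, so these counts have no background. The cause of these changes was not tested. Signs turned only in small differences that passed no test. With shRBM10#1 these were ERLEC1 (limma −0.0661; leave-outs −0.129 to 0.177), DERL2 (10 counts in every library −0.0033, limma −0.0877; leave-outs −0.0812 to 0.0996), SEL1L (−0.0533 to 0.0316), SYVN1 (−0.0405 to 0.234) and EDEM3 (−0.123 to 0.0633). Other leave-outs that turned sign were DERL2 with shRBM10#2 (−0.0122 to 0.169), SYVN1 (−0.0876 to 0.175) and EDEM2 (−0.202 to 0.0352) between the shRNAs, and EDEM1 with all KD libraries as a single group (−0.108 to 0.0386). The share of NM_001017956 with shRBM10#1 minus shScr was −4.43 to −2.90 points without one or other library. Replicate numbers did not pair the libraries (correlations of deviations −0.0038, −0.019 and −0.014), and a fit with the replicate block left the member counts at 1, 0 and 1 and ended the PDIA3 call with shRBM10#2 (FDR = 0.0600, edgeR) and the NPLOC4 call with shRBM10#1. With 2 libraries per condition, small changes may be missed, and reads were divided among isoforms by estimation.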
